A study of Homo sapiens with 12 samples.

Results

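The caspase family was followed here through 7 genes of the deposited gene table, which were chosen by symbol as CASP1, CASP2, CASP4, CASP6, CASP8, CASP9 and CASP10. They are 7 of 60099 genes, and all 7 passed the filter on low counts that left 19944 genes for testing. RNA of Cal27 and HN30, established cell lines of head and neck squamous cell carcinoma (HNSCC), was sequenced in 12 libraries after 24 h without IFNα or with 20 or 200 ng/ml IFNα, a type I interferon. The libraries carried the letters A to F with 2 replicates each, with the untreated controls under A and D, the low dose of 20 ng/ml under B and E, and the high dose of 200 ng/ml under C and F. The labels do not say which letter belonged to which line. Each dose occurs once among letters A to C and once among D to F, and these were taken as the sets of 1 line each. Pearson correlations of log2 values over 13033 genes lay between 0.944 and 0.979 for 30 pairs of libraries within a set and between 0.721 and 0.758 for 36 pairs across sets, and the sets are therefore called A-C and D-F. No label says whether replicates came from separate cultures, so the p-values measure the spread between these libraries, which may be technical.

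Caspases are cysteine proteases that cut their substrates after aspartate and are made as inactive precursors. CASP1 and CASP4 are inflammatory caspases, which process cytokines of the interleukin-1 family or cleave gasdermin D and so open the lytic death called pyroptosis. CASP8 and CASP10 are initiators recruited to death receptors, CASP9 is the initiator of the mitochondrial apoptosome, CASP2 is an initiator activated on the PIDDosome, and CASP6 is an executioner that cleaves structural proteins such as lamins. Type I interferons are known to raise the transcription of several caspase genes.

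All members encode a catalytic cysteine, and the coding sequence around its codon is shown because this residue defines the family. Each line gives 42 bases of the coding strand, 5′ to 3′, from 1 transcript of GENCODE release 29 on GRCh38, with the cysteine codon in capitals.

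CASP1 (CASP1-215): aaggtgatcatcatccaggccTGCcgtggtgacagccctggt

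CASP4 (CASP4-203): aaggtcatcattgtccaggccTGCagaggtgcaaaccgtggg

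CASP2 (CASP2-201): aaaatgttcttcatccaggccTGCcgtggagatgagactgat

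CASP8 (CASP8-205): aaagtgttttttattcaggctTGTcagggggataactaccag

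CASP9 (CASP9-210): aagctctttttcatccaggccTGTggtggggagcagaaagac

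CASP10 (CASP10-202): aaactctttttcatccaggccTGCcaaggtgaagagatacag

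CASP6 (CASP6-201): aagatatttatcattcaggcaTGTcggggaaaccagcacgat

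The windows were located by the residues glutamine, alanine, cysteine, any residue and glycine in the translation, so that part of their identity was fixed in advance. Across the 21 pairs of members, the median identity of these windows was 61.9%. The highest identity, 76.2%, was between the inflammatory members CASP1 and CASP4, and the lowest, 21 of 42 bases, was between CASP4 and CASP6. The codon was TGC in 4 members and TGT in 3 members.

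The 250 bases upstream of the start sites in RefSeq (GRCh38.p14) held 9 windows for 5 members, and they were searched because interferon acts through sequence elements there. The letters AANNGAAA, the core bound by interferon regulatory factors, and TTCNNNGAA, the element bound by STAT dimers, were searched on both strands. The first was found in 20.3% and the second in 6.57% of 35116 such windows of all genes. CASP4 had 3 matches to AANNGAAA, and 0.92% of all windows had 3 or more. CASP8 had 1 match to TTCNNNGAA upstream of its first start site and 1 match to AANNGAAA upstream of its second. The windows of CASP2, CASP9 and CASP6 held neither run of letters. CASP1 and CASP10 had no window and were not searched. The matches are shown on the strand of the gene with the matched bases in capitals. Each stretch shown for CASP4 overlaps an exon annotated in GENCODE release 29 on either strand, and longer CASP4 transcripts start further upstream. The stretches shown for CASP8 do not overlap an annotated exon.

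CASP4, chr11:104968778-104968805, minus strand: aggaaacaagAAAAGAAAcaagctgagg

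CASP4, chr11:104968731-104968758, minus strand: attttgtcatTTTCATTTttttccccca

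CASP4, chr11:104968575-104968595, minus strand: catagtttacTTTCATTTttg

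CASP8, chr2:201233253-201233281, plus strand: aaaattatttTTCCAAGAAgaaaataaac

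CASP8, chr2:201257796-201257823, plus strand: gatcaaggcaAAGGGAAActtcctattc

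The libraries held between 10517448 and 16056734 counts. The 4 controls, at 12670755 or more, were all deeper than the 4 high dose libraries, at 11854183 or less, and the part of depth in the results was not tested. All 20 interferon-stimulated genes used to check the treatment rose at both doses, with a median log2 fold change of 3.77 at the high dose, and all rose within each set. The 8 squamous epithelial markers summed to 2730 to 3350 TPM (a level scaled for transcript length and for depth) in A-C and to 1190 to 1490 TPM in D-F, with KRT14 at 41.9 to 49.2 TPM in A-C and at 0.254 TPM or less in D-F. The 5 leukocyte markers summed to 0.0425 to 2.33 TPM, with CD3E listed at 0 in every library and PTPRC and LYZ at 0.202 TPM or less. The 5 fibroblast markers summed to 5.5 to 15.4 TPM, and the 3 endothelial markers summed to 15.3 to 21.7 TPM in A-C, where CDH5 made up most of the sum, and to 0.1 to 0.733 TPM in D-F. The part of these levels in the caspase results was not tested.

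Among the 7 members, CASP4 was the highest and CASP9 the lowest in untreated cells of both sets. In A the order by mean TPM was CASP4, CASP8, CASP1, CASP2, CASP6, CASP10 and CASP9, and the values of CASP6 (15.2 ± 0.341 TPM, SD, n = 2) and CASP10 (14.5 ± 2.68 TPM, SD, n = 2) overlapped while all other neighbours were separate. In D the order was CASP4, CASP8, CASP6, CASP2, CASP10, CASP1 and CASP9, and CASP6 (28.7 ± 2.53 TPM) and CASP2 (27.3 ± 4.13 TPM) overlapped. CASP1 thus stood in place 3 in A and in place 6 in D. In F, CASP2, CASP1 and CASP6 overlapped from neighbour to neighbour, and the order CASP4, CASP8 at the top was kept in every letter except E, in which CASP8 (70.7 ± 0.717 TPM) was above CASP4 (61.4 ± 6.7 TPM). CASP4 was lower in E than in D in mean TPM but not in mean normalised counts. Its most abundant listed transcript was unevenly assigned in E, as given below.

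**Figure D1:**
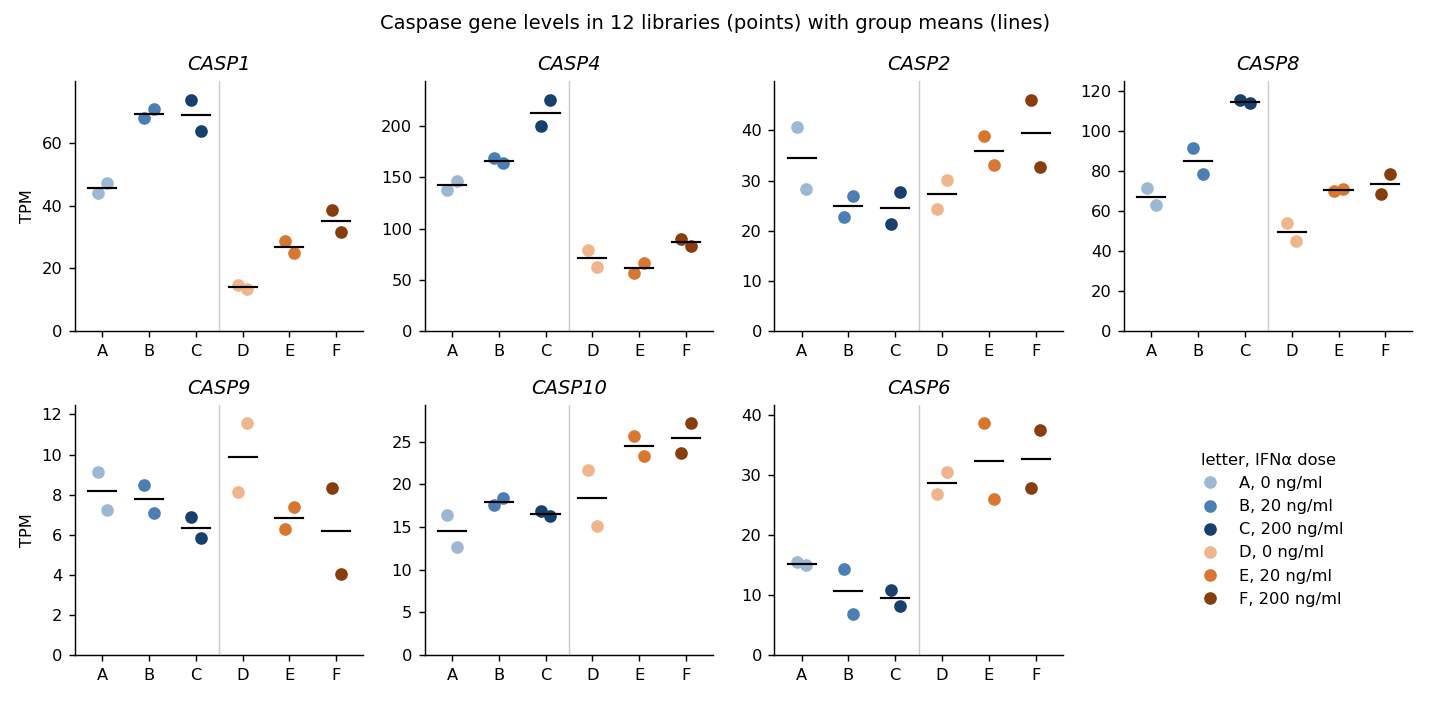
TPM of each caspase gene (y axis, linear from 0, a scale of its own in each panel) in letters A to F (x axis); points are the 2 libraries of a letter and lines are their means. CASP1, CASP4 and CASP8 lie higher in C than in A without overlap, and CASP6 lies higher in every D, E and F library than in every A, B and C library.

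The untreated sets were compared first, in the fit of estimated counts by edgeR. Of the 7 members, 2 were lower and 1 was higher in D than in A at an adjusted p of at most 0.05, where 22.4% of all genes tested were lower and 24.1% were higher. CASP1, which activates interleukin-1β and interleukin-18, was 3.64-fold lower in D (log2 difference -1.86 ± 0.13 SE, adjusted p = 3.4e-06). CASP4, the sensor of cytosolic lipopolysaccharide, was 2.13-fold lower (log2 difference -1.09 ± 0.13, adjusted p = 0.000114). The executioner CASP6 was 1.74-fold higher (log2 difference 0.80 ± 0.24, adjusted p = 0.0219). Both inflammatory members were lower and 1 of the 5 apoptotic members was higher in D. Calls were about as common over all genes tested, so these calls do not set the members apart. The CASP6 call was lost without A2 (adjusted p = 0.136), without D1 (0.0874) or without D2 (0.0605), with log2 differences of 0.63 to 0.98 over the libraries left out. The other 4 members did not pass, with CASP8 closest at -0.29 ± 0.13 (adjusted p = 0.0887). With limma on log2(TPM + 1) CASP8 passed as lower in D (-0.44, adjusted p = 0.0195). Here and below a value refers to bulk RNA, in which fewer expressing cells and less RNA per cell cannot be told apart.

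At the high dose, 3 members rose (CASP1, CASP8 and CASP4) and 1 fell (CASP9), against 4.98% of all genes tested that rose and 4.57% that fell. None of the 4 changed by 2-fold or more on average over the sets, a size that 2.14% of all genes reached with the same adjusted p. Both inflammatory members rose, whereas of the 5 apoptotic members 1 rose and 1 fell. The estimate of the apoptotic CASP8 (0.63 ± 0.09) was larger than that of the inflammatory CASP4 (0.36 ± 0.09). Of 21 alternatives, the CASP4 call was lost in 14 and the CASP9 call in 9. The median log2 fold change was 0.63 over the inflammatory, 0.15 over the apoptotic and -0.01 over all genes tested.

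Among the inflammatory members, CASP1 was at 44.1 and 47.3 TPM in A, 67.9 and 70.7 TPM in B, and 73.8 and 63.7 TPM in C. In the other set it was at 14.8 and 13.5 TPM in D, 28.9 and 25.03 TPM in E, and 38.7 and 31.7 TPM in F. Every treated library lay above the controls of its set, and the D-F libraries at 200 ng/ml still lay below the untreated A libraries. The increase over both sets was 1.87-fold at the high dose (log2 fold change 0.90 ± 0.09, adjusted p = 0.000207) and 1.63-fold at the low dose (0.70 ± 0.09, adjusted p = 0.0017). CASP1 was the only member that passed at the low dose, where 2.33% of all genes rose and 1.6% fell. Reads of CASP1 can be shared with its near-copies CARD16, CARD17 and CASP1P2 next to it on chromosome 11, and how the authors' counting divided them is not given in the sources used here. CASP1 itself spans chr11:105025443-105035250 on the minus strand of GRCh38.

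CASP4, on the same strand at chr11:104942866-104969436, was at 138 and 147 TPM in A, 168 and 164 TPM in B, and 199.8 and 226 TPM in C. In D it was at 79.3 and 62.8 TPM, in E at 56.7 and 66.2 TPM, and in F at 89.5 and 83.5 TPM. The A-C libraries rose with dose without overlap, while E overlapped with D and F lay above D only in TPM. The normalised counts of CASP4 were 63.7 and 48.6 CPM (TMM-scaled counts, not scaled for length) in D. They were 58.5 and 62.6 CPM in E and 58.7 and 63.7 CPM in F. The high dose gave 1.29-fold higher counts over both sets (0.36 ± 0.09, adjusted p = 0.0364). This call was lost without any one of A1, A2, B1, B2, C2, D2, E1, E2, F1 or F2, with adjusted p between 0.0573 and 0.119, and without the filter (0.0596). At the low dose the difference was 0.15 ± 0.09 (adjusted p = 0.46).

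Among the initiators, CASP8, at chr2:201233443-201287711 on the plus strand, was at 71.2 and 62.8 TPM in A, 91.3 and 78.6 TPM in B, and 116 and 114 TPM in C. In the other set it was at 53.7 and 45.1 TPM in D, 70.1 and 71.2 TPM in E, and 68.2 and 78.5 TPM in F. All treated libraries lay above their controls in TPM, with the high dose above the low dose in A-C and overlapping with it in D-F. In CPM, D (64.2 and 58.1) and E (60.8 and 73.2) overlapped. CASP8, the apoptotic initiator that also restrains necroptosis, rose 1.55-fold at the high dose (0.63 ± 0.09, adjusted p = 0.00243). At the low dose it was 0.32 ± 0.09 higher (adjusted p = 0.0909), which did not pass with edgeR but passed with DESeq2 (adjusted p = 0.036) and with limma on log2(TPM + 1) (adjusted p = 0.0403). The gene counts include CASP8-220, a processed transcript without a coding sequence. It held 315 and 330 of 989 and 1086 counts in A, and 914 and 693 of 1682 and 1483 in C. In the other set it held 429 and 353 of 969 and 898 counts in D, and 316 and 329 of 848 and 923 in F. The response of CASP8 without this transcript was not tested.

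CASP9, at chr1:15490832-15526534 on the minus strand, was the 1 member that fell. Its counts were 158 and 153 in A, 130 and 146 in B, and 67 and 50 in C. In the other set they were 142 and 201 in D, 73 and 108 in E, and 104 and 68 in F. Every high dose library had fewer CASP9 counts than the controls of its set, also in CPM, at 6.04 and 5.11 CPM in C against 12.7 and 9.88 CPM in A. The decrease was 1.79-fold (log2 fold change -0.84 ± 0.20, adjusted p = 0.0287). The call was lost without A1 (adjusted p = 0.0842), C2 (0.0868), D2 (0.101) or F2 (0.0888). In TPM, where A was at 9.12 and 7.22, C at 6.87 and 5.81, D at 8.15 and 11.6 and F at 8.33 and 4.05, F overlapped with D, and limma on log2(TPM + 1) gave -0.48 with an adjusted p of 0.227. The 3′ end of CASP9 overlaps the end of CELA2B on the opposite strand, and use of strand in the counting was not stated.

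The remaining initiators, CASP2 and CASP10, did not pass at either dose. CASP2, at chr7:143288215-143307696 on the plus strand, was at 40.7 and 28.4 TPM in A, 22.7 and 27.0 TPM in B and 21.4 and 27.7 TPM in C, whereas D was at 24.4 and 30.2 TPM, E at 38.8 and 33.2 TPM and F at 46.1 and 32.7 TPM. In TPM every treated A-C library lay below its controls and every treated D-F library lay above them, while in CPM A (66.6 and 46.2) and C (39.2 and 58.5) overlapped. Over both sets its difference at the high dose was 0.15 ± 0.19 (adjusted p = 0.693).

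CASP10, at chr2:201182881-201229406 on the plus strand next to CASP8, was at 16.4 and 12.6 TPM in A, 16.8 and 16.3 TPM in C, 21.7 and 15.1 TPM in D and 23.7 and 27.1 TPM in F. Its counts were less even between replicates, at 350 and 200 in A, 321 and 150 in C, 237 and 182 in D, and 193 and 529 in F. The high dose difference was 0.61 ± 0.34 (adjusted p = 0.327). Without F2 it was 0.16, the lowest value over the libraries left out.

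The executioner CASP6, at chr4:109688622-109703583 on the minus strand, was at 15.5 and 15.0 TPM in A, 14.4 and 6.92 TPM in B and 10.8 and 8.15 TPM in C. In D it was at 27.0 and 30.5 TPM, in E at 38.7 and 26.1 TPM and in F at 27.9 and 37.6 TPM. All A-C treated libraries lay below their controls, and those of D-F did not separate from theirs. Neither the high dose (-0.30 ± 0.17, adjusted p = 0.333) nor the low dose (-0.45 ± 0.17, adjusted p = 0.218) passed. The 3′ end of CASP6 overlaps the end of MCUB, and its body an antisense gene, both on the opposite strand.

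**Figure D2:**
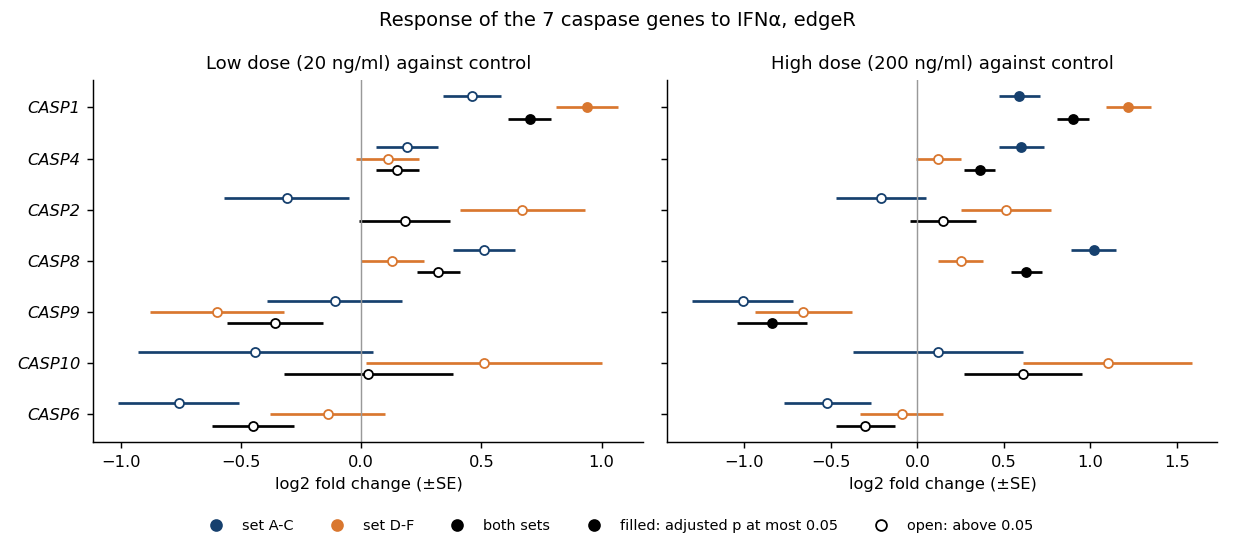
Log2 fold changes with standard errors (x axis) of the 7 caspase genes (y axis) at the low dose (left) and the high dose (right), within set A-C, within set D-F and over both sets; filled points have an adjusted p of at most 0.05. At the high dose CASP1 is further right in D-F (1.22) than in A-C (0.59), and CASP8 is further right in A-C (1.02) than in D-F (0.25).

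The doses were then compared with each other. No member differed between the high and the low dose by edgeR or DESeq2, where 0.135% of all genes did by edgeR. At an unadjusted p of at most 0.05, 868 of the 19944 genes tested were higher and 978 were lower, and among them were 4 members. These were CASP8 (log2 difference 0.31 ± 0.09, adjusted p = 0.334), CASP1 (0.20 ± 0.09, adjusted p = 0.523) and CASP4 (0.21 ± 0.09, adjusted p = 0.525), which were higher at the high dose, and CASP9 (-0.48 ± 0.20, adjusted p = 0.517), which was lower. For all 4 the high dose estimate was further from 0 than the low dose estimate, and both estimates share the control libraries.

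Within the sets, the members that passed at the high dose were not the same. In C against A, 3 members rose and 0 fell, where 3.58% of all genes rose and 3.6% fell. These were CASP8 (2.02-fold, 1.02 ± 0.13, adjusted p = 0.00223), CASP1 (1.5-fold, 0.59 ± 0.12, adjusted p = 0.0226) and CASP4 (1.52-fold, 0.60 ± 0.13, adjusted p = 0.0255). CASP9 was 2.02-fold lower in C than in A but did not pass (adjusted p = 0.0672). In F against D, CASP1 alone rose (2.33-fold, 1.22 ± 0.13, adjusted p = 0.000418), where 3.44% of all genes rose and 2.39% fell. The CASP8 difference there was 0.25 ± 0.13 (adjusted p = 0.352) and that of CASP4 was 0.12 ± 0.13 (adjusted p = 0.704).

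The test of the difference between the sets itself passed for no member at the high dose, where it passed for 1.88% of all genes. The CASP8 response was smaller in D-F by 0.77 on the log2 scale (-0.77 ± 0.18, adjusted p = 0.0666). In TPM its mean rose from 67.0 in A to 115 in C, and from 49.4 in D to 73.4 in F. DESeq2 gave -0.80 with an adjusted p of 0.00543, and it was the 1 of 20 alternatives in which this difference passed. CASP1 pointed the other way, with a response larger in D-F by 0.63 ± 0.17 (adjusted p = 0.106), and CASP4 was at -0.48 ± 0.18 (adjusted p = 0.211). These 3 had an unadjusted p of at most 0.05, as had 1965 of the 19944 genes tested with a positive and 1574 with a negative difference. At the low dose no member passed by edgeR or DESeq2, where 0.371% of all genes did by edgeR. At an unadjusted p of at most 0.05, 1149 of the 19944 genes had a positive and 949 a negative difference. Among them were 2 members, CASP1 (0.48 ± 0.18, adjusted p = 0.37) and CASP2 (0.98 ± 0.37, adjusted p = 0.387).

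Summed levels of the inflammatory members CASP1 and CASP4 were set beside those of the 5 apoptotic members in each library, with no test because the members were chosen with earlier results known. The inflammatory sum was 182 and 194 TPM in A, 236 and 234 TPM in B, and 274 and 289 TPM in C. In D-F it was 94.1 and 76.3 TPM in D, 85.6 and 91.2 TPM in E, and 128 and 115 TPM in F. The sum in C lay above that in A and the sum in F above that in D without overlap.

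The apoptotic sum was 153 and 126 TPM in A, 154 and 138 TPM in B, and 171 and 172 TPM in C. In D-F it was 135 and 132 TPM in D, 179.6 and 161 TPM in E, and 174 and 179.99 TPM in F. The share of the inflammatory members in the sum of all 7 was 54.3 to 62.9% in the A-C libraries and 32.3 to 42.4% in the D-F libraries, so that the sets did not overlap. Within a set, the share at the high dose (62.1 ± 0.93% in C and 40.7 ± 2.39% in F, SD, n = 2) stood beside 57.4 ± 4.47% in A and 38.8 ± 3.21% in D, with C above A and with F and D overlapping.

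**Figure D3:**
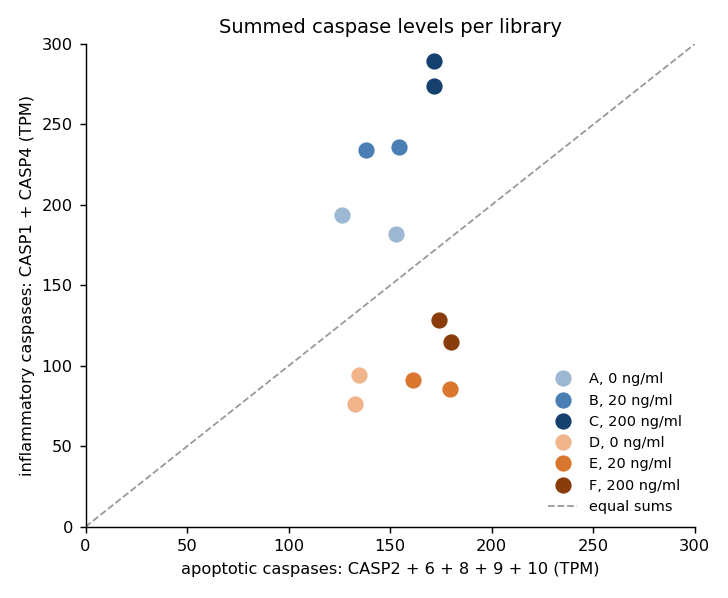
Summed TPM of CASP1 and CASP4 (y axis) against summed TPM of the 5 apoptotic caspases (x axis), 1 point per library; the dashed line marks equal sums. The 6 A-C libraries lie above the line and the 6 D-F libraries below it.

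Transcripts of the members were tested in a fit of 75876 transcripts. The table lists 89 transcripts of the 7 genes, of which 59 passed the filter and 41 of these had a positive estimate at the high dose. None passed with edgeR, where 0.597% of all transcripts did. The median log2 fold change over all transcripts tested was -0.05. At an unadjusted p of at most 0.05 there were 4 transcripts of members, where 3060 of all 75876 were higher and 3672 lower. DESeq2 called 1 transcript of the members, and of the 62757 transcripts it tested it called 1164 higher and 1286 lower. The call by DESeq2 was CASP8-220 (ENST00000490682), a processed transcript without a coding sequence and the most abundant listed transcript of CASP8. On simulated data only 49 of 433 transcripts that DESeq2 called had been changed. The simulation did not match the data in full, since edgeR called 0 of its transcripts but 0.597% of those measured. It therefore cannot say how reliable the CASP8-220 call is, and that call rests on DESeq2 alone.

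CASP8-220 was at 13.9 and 11.3 TPM in A, 32.3 and 26.8 TPM in B, and 43.5 and 38.4 TPM in C. In the other set it was at 17.0 and 13.3 TPM in D, 13.4 and 17.4 TPM in E, and 16.4 and 16.6 TPM in F. The A-C libraries rose with dose without overlap and the D-F libraries did not. By edgeR the high dose estimate was 0.82 ± 0.17 over both sets (adjusted p = 0.141), 1.65 ± 0.25 in C against A (adjusted p = 0.0636) and -0.00 ± 0.24 in F against D, and DESeq2 gave 0.82 ± 0.20 with an adjusted p of 0.00305. The difference between the sets was -1.66 ± 0.35 and did not pass (adjusted p = 0.283).

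As a share of all CASP8 TPM, CASP8-220 made up 19.6 and 17.97% in A, 35.4 and 34.1% in B and 37.6 and 33.8% in C. In D it made up 31.6 and 29.6%, in E 19.2 and 24.5%, and in F 24.0 and 21.2%. The share was thus higher in treated A-C libraries and lower in treated D-F libraries than in their controls. Over both sets the high dose differed from the control by 4.49 percentage points (exact two-sided permutation test within sets, p = 0.444, adjusted p = 1.0 over 7 members). Of 36 arrangements the smallest possible p is 0.0556, so that the test could not pass 0.05.

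The most abundant listed transcripts of CASP4 and CASP10 were unevenly assigned between libraries. CASP4-212, a transcript annotated with a retained intron, made up 51.4 to 62.4% of CASP4 TPM in 9 libraries but 3.72, 1.6 and 4.3% in E1, E2 and F1. CASP10-213, a processed transcript, made up 35.0 to 46.4% of CASP10 TPM in 8 libraries and was listed at 0 in A1, C1, E1 and F2. In the same 4 libraries the coding transcript CASP10-202 had 237, 196, 117 and 303 counts, against 16 to 44 counts in the other 8. These 4 libraries span both sets and all doses, and they include the higher CASP10 gene count of each of the letters A, C, E and F. In C and F, where the CASP10 counts differed most between replicates, the TPM values of the gene were 16.8 and 16.3 and 23.7 and 27.1.

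**Figure D4:**
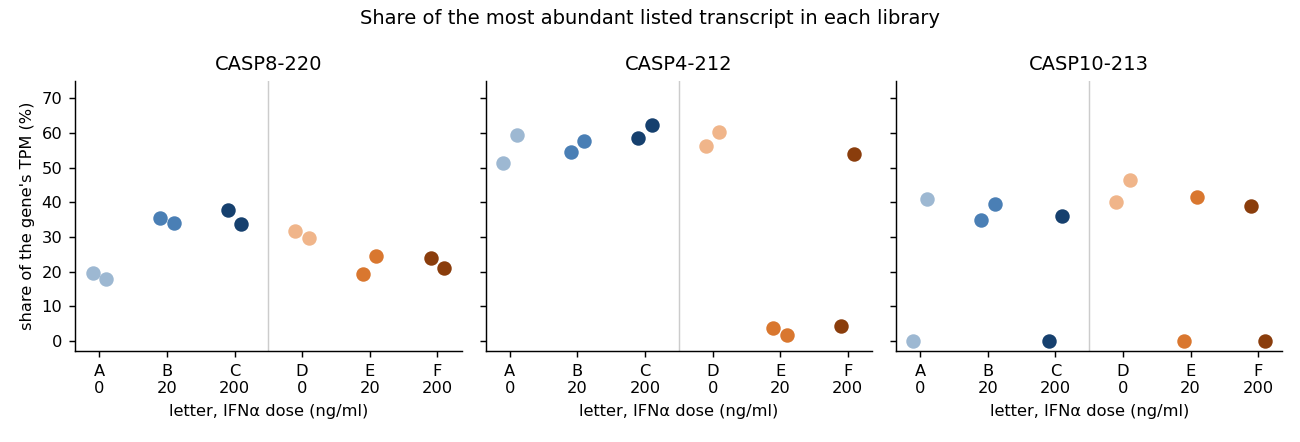
Share of the most abundant listed transcript in the TPM of its gene (y axis, %) by letter and dose (x axis), 1 point per library, for CASP8-220, CASP4-212 and CASP10-213. CASP8-220 rises from A to C and falls from D to F, CASP4-212 drops below 5% in 3 libraries, and CASP10-213 is listed at 0 in 4 libraries.

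The other caspases and caspase-like genes were read from the same fit. Of 9 listed, 6 passed the filter, 2 of these rose at the high dose and none fell. Over all genes tested 4.98% rose and 4.57% fell, and these shares also apply to the lists below. CARD16, a decoy made of the CASP1 recruitment domain, rose 1.16 ± 0.24 on the log2 scale (adjusted p = 0.0153), from 13.3 and 20.2 TPM in A and 4.61 and 2.28 TPM in D to 24.7 and 18.9 TPM in C and 16.5 and 11.8 TPM in F. C and A overlapped for CARD16 whereas F and D did not. CFLAR, the inactive homologue of CASP8 that limits its activation, rose 0.98 ± 0.13 (adjusted p = 0.00132), from 58.7 and 52.6 TPM in A and 33.4 and 27.6 TPM in D to 98.8 and 98.0 TPM in C and 45.7 and 44.8 TPM in F.

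CARD17, with 17 counts or fewer in every library, and CARD18, with 12 or fewer and 0 throughout A-C, did not pass. CASP5 had 1 count in all, CASP12 none, and CASP14 4 or fewer counts in any library, so that they were not tested.

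The genes that act with the inflammatory caspases moved in part. Of 15 genes of inflammasomes and pyroptosis, 13 were tested, 3 rose and 1 fell at the high dose, where 4.98% of all genes tested rose and 4.57% fell. AIM2, a sensor of cytosolic DNA that recruits CASP1, rose 1.85 ± 0.15 (adjusted p = 6.75e-05) and the related sensor IFI16 rose 1.40 ± 0.07 (adjusted p = 9.61e-07). IL1B, the cytokine cleaved by CASP1, rose 0.42 ± 0.06 (adjusted p = 0.00222), with 77.0 and 63.8 TPM in D against 125 and 128 TPM in F and overlapping values in A (513 and 480 TPM) and C (467 and 484 TPM). DPP9, an inhibitor of the NLRP1 and CARD8 inflammasomes, fell by 0.35 ± 0.06 on the log2 scale (adjusted p = 0.00897).

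Of 10 genes of the death receptor platform that recruits CASP8 and CASP10, 9 were tested, 4 rose and none fell. TNFSF10, the ligand TRAIL, rose 2.91 ± 0.26 (adjusted p = 0.000108), the kinase RIPK1 rose 0.55 ± 0.08 (adjusted p = 0.00321), the TRAIL receptor TNFRSF10A rose 0.47 ± 0.06 (adjusted p = 0.0012) and the adaptor FADD rose 0.31 ± 0.08 (adjusted p = 0.0445). Of 15 genes of the mitochondrial and PIDD platforms that act with CASP9 and CASP2, all were tested, 1 rose and 1 fell. Calls were about as common over all genes tested, at 4.98% higher and 4.57% lower, so these calls do not set the list apart. PMAIP1, which encodes the BH3-only protein NOXA, rose 0.79 ± 0.14 (adjusted p = 0.00608), and BAX, a pore former of the outer mitochondrial membrane, fell by 0.56 ± 0.09 (adjusted p = 0.00455). BAX was at 51.5 and 52.2 TPM in A and 26.9 and 31.2 TPM in C, whereas D (90.3 and 89.4 TPM) and F (80.3 and 88.6 TPM) were closer.

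Of 6 caspase inhibitors, 2 rose and none fell. BIRC3, an inhibitor of apoptosis protein, rose 0.86 ± 0.12 (adjusted p = 0.00196). SERPINB9, an inhibitor of granzyme B that also binds CASP1, passed (adjusted p = 0.0102), but its counts in D were 2 and 0 against 8 and 9 in F, and 415 and 501 in A against 404 and 478 in C, so that its fitted fold change depends on counts at the floor of 3. The median log2 fold change was 0.07 over the inflammasome list, 0.19 over the death receptor list, 0.00 over the mitochondrial list and 0.20 over the inhibitors, beside -0.01 over all genes tested.

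For each member that passed at the high dose, the genes with the most similar pattern were named by Pearson's r of log2 values over the 12 libraries, centred within each set, among the 13033 genes whose mean count was 50 or more. CASP1 was followed most closely by ANTXR2 (r = 0.986), CMTR1 (r = 0.983) and HLA-E (r = 0.982). CASP4 was closest to KIF13A (r = 0.973), RAI14 (r = 0.946) and RC3H1 (r = 0.944). CASP8 was closest to NUFIP2 (r = 0.957), ENDOD1 (r = 0.952) and MT-ND4L (r = 0.951), and CASP9 to ZFP91 (r = 0.944), AC026403.1 (r = 0.914) and CIRBP (r = 0.913). These values describe likeness over libraries that share their depth and dose, are the highest of many, and carry no test. HLA-E, as an example, was at 81.4 and 85.8 TPM in A and 141 and 125 TPM in C, and at 70.5 and 68.7 TPM in D and 203 and 196 TPM in F.

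The calls at the high dose were set beside those under other processing. CASP1 and CASP8 passed in all other fits of their counts or TPM except the one that ignored the set, in which both had the same sign. CASP4 lost its call in 14 and CASP9 in 9 of 21 alternatives, always with the same sign.

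**Figure D5:**
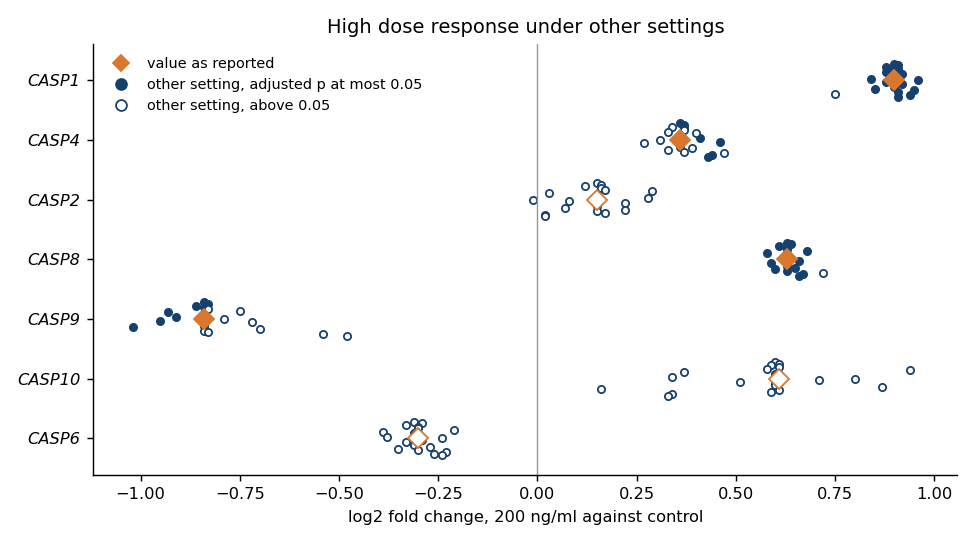
Log2 fold change at the high dose (x axis) of each caspase gene (y axis) as reported (diamond) and under 21 other settings (circles), filled where the adjusted p is at most 0.05. The circles of CASP1 and CASP8 form tight groups right of 0, and those of CASP9 lie between -1.02 and -0.48.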

How the data were processed

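RNA of 2 HNSCC lines was sequenced by the authors after rRNA removal, in strand-keeping libraries on the HiseqXTen platform. The submitters' processing notes name Trimmomatic 0.36, HISAT2 2.1.0, StringTie 1.3.3b and GRCh38.p10, and the counting program, its use of strand and the annotation release are not given in the sources used here. Genes and transcripts each had a deposited estimated count, a whole number not scaled for depth, and for all 60099 genes the transcripts added up to the gene. The files also hold deposited TPM and FPKM values, scaled by the authors for length and depth, of which TPM was used for levels and shares and FPKM was not used.

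Samples were grouped by letter from their titles. Counts were fitted with edgeR 4.0.16 in R 4.3.3 (filterByExpr, TMM, 6 letter groups, quasi-likelihood test), with contrasts averaged over sets and Benjamini-Hochberg adjustment over all 19944 genes or 75876 transcripts. A member was called at an adjusted p of at most 0.05. Standard errors were derived from the log2 fold change and the F statistic. CPM values use TMM library sizes. DESeq2 1.42.0, limma 3.58.1 on log2(TPM + 0.1) and log2(TPM + 1), other size factors and filters, a replicate block, a fit of the compared groups, a fit without the set, other thresholds and leaving out each library were alternatives. Permutation tests were two-sided and exchanged control and high dose within sets. Python 3.11.15 with pandas 2.3.3, numpy 2.4.6, scipy 1.17.1 and matplotlib 3.10.9 made tables and figures. Positions of members were the same in the deposited table and GENCODE release 29.

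The fits were tested on simulated data with 200 features changed at the high dose. Of 19944 genes, edgeR called 117 with 108 of the changed among them and DESeq2 called 145 with 114. Of 75876 transcripts, edgeR called 0 and DESeq2 called 433 with 49 of the changed. In the data edgeR called 0.597% of transcripts, so the simulation did not match the data in this and cannot weigh the transcript calls. A lack of transcript calls is not read as a lack of change. Counts of replicates differed by more than sampling noise, at 11.1 to 15.3 chi-square units per degree of freedom.

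The members and gene lists were chosen with earlier results of these data known. Named were all members, all other caspases and caspase-like genes, at most 4 genes of each other list with the largest change among those that passed at the high dose, and the 3 genes most like each member that passed. A few genes of these lists are not reported here. Depth was 10517448 to 16056734 counts per library, and 2 replicates per letter limit the precision.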

Additional observations from a re-analysis of the deposited data

Results flagged for a closer look

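The share of CASP8-220 in the TPM of CASP8 moved in opposite directions in the sets. At the high dose it was 16.98 percentage points higher in C than in A and fell by 8.01 percentage points from D to F. At the low dose it was 15.96 percentage points higher in B than in A and fell by 8.77 percentage points from D to E. Each treated library of A-C lay above both of its controls and each treated library of D-F lay below both of its controls. Both doses share the control libraries, and the difference of the shares between sets was not tested.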

How the results depend on the processing

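At the high dose, 3 members higher and 1 lower became 0 and 0 without the set in the fit and under either 2-fold threshold, and 0 lower with the replicate block, with the compared groups only and with limma on TPM at both pseudocounts; without 1 library the count was 2 to 3 higher and 0 to 1 lower. At the low dose, 1 higher became 2 with DESeq2 and with limma on TPM (CASP8 added), and 0 without the set or under a 2-fold threshold. DESeq2 called 1 difference between sets at the high dose (CASP8), where 489 of 13816 genes had a positive and 493 a negative difference. It called 1 transcript, and 2 transcripts passed 2-fold with an unadjusted p, where 2339 of all 75876 were higher and 2461 lower. In D against A, 1 higher (CASP6) became 0 with the replicate block, limma on log2(TPM + 0.1) or a 2-fold threshold, and was 0 to 1 without 1 library, while the 2 lower calls (CASP1 and CASP4) held in the alternatives that were run and became 3 with limma on TPM, which added CASP8. Reversed signs were all in values that had not passed: CASP2 at the high dose (-0.01 to 0.29 without 1 library) and at the low dose (-0.03 with limma on TPM), CASP10 at the low dose (-0.20 to 0.36 without 1 library), and, in D against A, CASP2 (-0.51 to 0.02), CASP9 (-0.26 to 0.20 without 1 library, 0.26 and 0.23 with limma on TPM) and CASP10 (-1.04 to 0.09, 0.33 and 0.31), and the difference between sets of CASP9 (-0.01 to 0.63, -0.37 and -0.33). Shares of the most abundant transcript at the high dose without 1 library ranged over 0 for CASP1 (-6.93 to 1.4 points), CASP4 (-24.5 to 0.33), CASP2 (-1.64 to 2.02, and -6.46 as a share of counts) and CASP9 (-13.0 to 12.9, and 12.5 as a share of counts). Replicate numbers did not pair libraries: deviations of same-numbered libraries correlated at -0.046 to 0.0559 in 6 pairs of letters. With the replicate block, CASP4 (0.37, adjusted p = 0.0671) and CASP9 (-0.83, 0.0604) lost their calls. The cause of these changes was not tested.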
